A study of Homo sapiens with 6 samples.

Results

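The zinc finger genes of human chromosome 19 were followed in MDA-MB-231, a human cell line of triple-negative breast cancer, across a control line and 2 lines in which HMGA2 was knocked down. HMGA2 is an architectural chromatin protein that binds AT-rich DNA. A gene was a member when its symbol was ZNF followed by a number, with at most 1 letter after it, and the deposited table placed it on chromosome 19. This gave 263 of the 61806 genes. Total RNA was sequenced in 6 libraries, 2 per line. shNC cells were the control by sample title, with library names that read WT. The shHMGA2-1 and shHMGA2-2 cells carried 1 of 2 different hairpins against HMGA2, each delivered by lentivirus with puromycin selection. By the study's methods each stable line was grown up from a single clone, and for shNC this is not stated, so what a hairpin did and how 1 clone differs from another cannot be told apart in any comparison below. Both libraries of a line came from that line, and nothing states that they were separate cultures, so the p-values measure the spread between libraries, which may be technical.

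Chromosome 19 carries the largest concentration of zinc finger genes in the human genome, arranged in clusters that arose by repeated local duplication. Most of the proteins join an array of C2H2 fingers, which reads a DNA sequence, to a KRAB domain, which recruits the corepressor TRIM28 and through it the histone methyltransferase SETDB1 and heterochromatin proteins. Many of them bind transposable elements, and the clusters themselves are often packed in heterochromatin carrying histone H3 lysine 9 trimethylation.

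HMGA2, the targeted gene, had 2126 and 2161 counts with shNC, 858 and 989 with shHMGA2-1 and 435 and 482 with shHMGA2-2. The 3 lines did not overlap. The log2 fold change was -1.29 ± 0.09 (SE) in shHMGA2-1 and -2.31 ± 0.09 in shHMGA2-2, so that the line with less HMGA2 was shHMGA2-2. Library totals ran from 16461178 to 17167293 counts. VIM, CD44, AXL and EGFR, which mark this mesenchymal-like line, had between 3145 and 38106 counts in every library, and the leukocyte, endothelial and hepatocyte markers had at most 14. Of the luminal genes, ESR1 and PGR stayed at 12 counts or fewer, while GATA3 had 38 to 58 counts in shNC and shHMGA2-1 and 262 and 318 in shHMGA2-2, and FOXA1 had 64 to 110 counts in shNC and shHMGA2-1 and 5 and 1 in shHMGA2-2. The part of such differences between the lines in the results below was not tested.

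Most members were transcribed at low level. In FPKM, which divides the counts by exonic length and library total, the median over the 263 members was 1.42, and 167 members reached a mean of 1. Of the 263, 224 had enough counts to be tested and 39 did not. Of all members, 35 had no more than 3 counts in any library and 23 had none, and the highest count of an untested member was 17. The 5 most abundant members by FPKM were ZNF146, ZNF114, ZNF428, ZNF700 and ZNF787. ZNF146, whose protein consists almost wholly of zinc fingers and has no KRAB domain, had 49.0 and 47.0 FPKM with shNC, 46.4 and 50.1 with shHMGA2-1 and 57.5 and 51.6 with shHMGA2-2, and it passed no test. ZNF428 had 10.96 and 10.4 FPKM with shNC, 13.7 and 14.3 with shHMGA2-1 and 21.1 and 22.6 with shHMGA2-2. The 3 lines did not overlap for ZNF428, and its log2 fold change of 0.92 ± 0.11 in shHMGA2-2 passed the p-value threshold but not the limit of 2-fold (edgeR adjusted p = 9.74e-08). ZNF114 and ZNF700 differed from shNC by 0.50 ± 0.09 and 0.36 ± 0.10 in shHMGA2-2 on the log2 scale, and ZNF787 by -0.04 ± 0.09.

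Each line was then compared with shNC, and the knockdown lines with each other, in 1 edgeR quasi-likelihood fit over all 16110 genes tested. A gene was called higher or lower when its Benjamini-Hochberg adjusted p was under 0.05 and its level differed by 2-fold or more. In shHMGA2-2, 44 members were higher than in shNC and 1 was lower, beside 11.7% of all tested genes called higher and 9.65% called lower. In shHMGA2-1, 4 members were higher and 6 were lower, beside 4.89% and 3.59% of all genes. Between the knockdown lines, 43 members were higher in shHMGA2-2 and 0 were lower, beside 7.83% and 7.27%. Beside that count of 0 by edgeR, 5 members were lower in shHMGA2-2 than in shHMGA2-1 at an unadjusted p under 0.05, and DESeq2 and limma also called 0. The comparisons with shNC share its 2 libraries, and those with shHMGA2-2 share that line's 2 libraries.

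The shift in shHMGA2-2 was not limited to the called members. The median log2 fold change against shNC was 0.49 over the 224 tested members (quartiles 0.19 and 0.90), beside 0.03 over all genes, 0.20 over the 234 tested ZNF genes of other chromosomes and 0.19 over the 913 other tested genes of chromosome 19. Upper quartile scaling moved the median of all genes from 0.03 to 0.14 and that of the members to 0.61. The members lay 0.47 above all genes under either scaling. A change of scaling adds nearly the same amount to every gene, so this difference could hardly have moved. The value was above 0 for 190 of 224 members (84.8%), against 52.0% of all genes and 62.8% of ZNF genes elsewhere. Among ZNF genes of other chromosomes, 33 (14.1%) were called higher and 15 (6.41%) lower in shHMGA2-2. Among other genes of chromosome 19 it was 140 (15.3%) and 43 (4.71%), and among the members 19.6% and 0.446%. In shHMGA2-1 the median over the members was 0.02, beside 0.01 over all genes. Against shHMGA2-1 the shHMGA2-2 median was 0.47, beside 0.00 over all genes. A member that passed the filter on low counts only through the line in which it was high had to differ, so these values were also taken over genes with at least 10 counts in each shNC library. Of the 205 members left, 30 (14.6%) were higher and 1 lower in shHMGA2-2 than in shNC. Of the 14108 genes selected in the same way, 6.48% were higher and 10.7% lower. The medians were 0.44 and -0.04. Of ZNF genes of other chromosomes, 9.63% were higher and 6.88% lower, with a median of 0.17. Of other genes of chromosome 19, 6.72% were higher and 5.67% lower, with a median of 0.10. Under the same selection 1 member was higher and 5 were lower in shHMGA2-1 than in shNC, beside 2.85% and 3.96%, and 30 were higher and 0 lower in shHMGA2-2 than in shHMGA2-1, beside 4.44% and 7.51%.

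**Figure D1:**
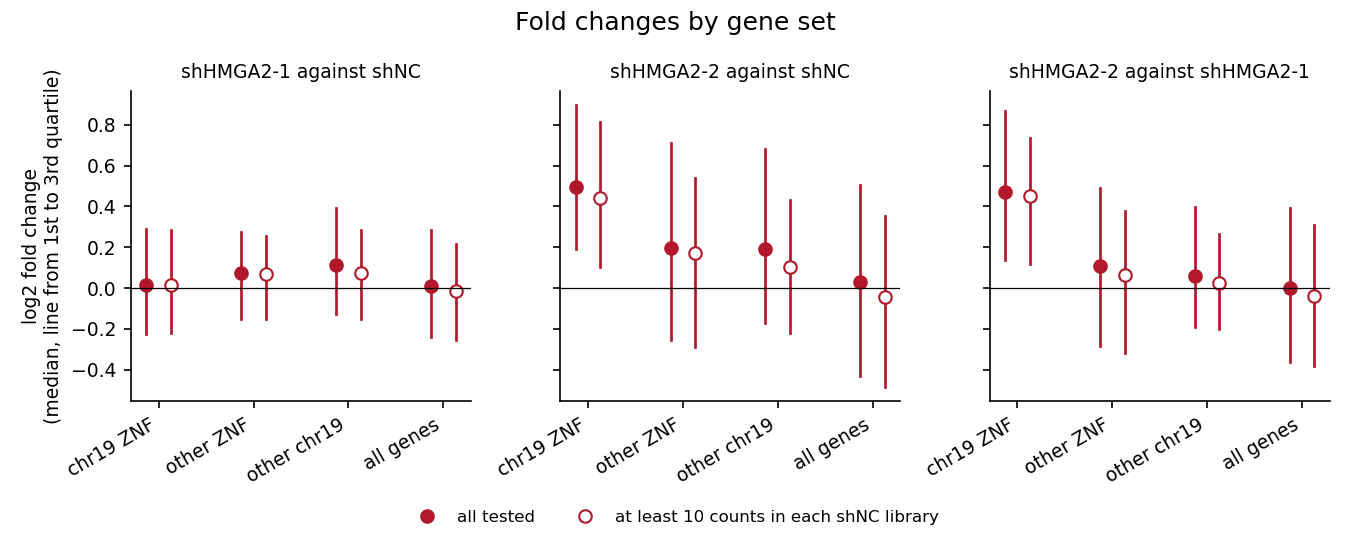
Log2 fold change (y axis) in the 3 comparisons for ZNF genes of chromosome 19, ZNF genes of other chromosomes, other genes of chromosome 19 and all genes. Points are medians and lines run from the first to the third quartile, filled for all tested genes and open for genes with at least 10 counts in each shNC library. The chromosome 19 ZNF genes have medians of 0.49 and 0.47 in both comparisons of shHMGA2-2 and 0.02 in shHMGA2-1 against shNC.

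Summed over all 263 members, the level in TMM-scaled CPM (counts scaled to a common library size) was 2723 and 2682 with shNC, 2678 and 2778 with shHMGA2-1 and 3787 and 3747 with shHMGA2-2. The shHMGA2-2 libraries stood apart from the other 4, which overlapped. The mean was 2702 ± 29.6 (SD, n = 2) in shNC, 2728 ± 70.6 in shHMGA2-1 and 3767 ± 28.6 in shHMGA2-2, a ratio to shNC of 1.39 for shHMGA2-2 and 1.01 for shHMGA2-1. With 2 libraries against 2, an exact permutation test cannot give a p under 0.333, so no test was made. The ZNF genes of other chromosomes summed to 6007 ± 2.73 CPM in shNC and 6064 ± 105 in shHMGA2-2, a ratio of 1.01. The 9 members at or near 0 in a line, described next, added 79.9 ± 2.73 CPM in shHMGA2-2, so that most of the rise came from the other members.

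**Figure D2:**
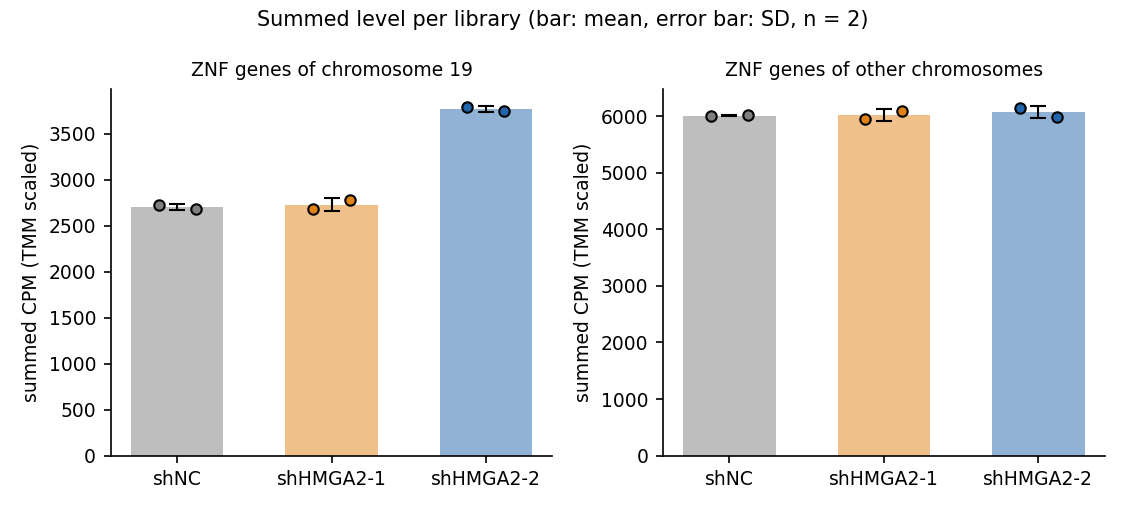
Summed level in TMM-scaled CPM (y axis, from 0) of the ZNF genes of chromosome 19 (left) and of other chromosomes (right) in the 3 lines. Bars are means, error bars SD (n = 2) and points single libraries. The shHMGA2-2 libraries reach 3787 and 3747 on the left, and on the right the 3 lines lie between 5950 and 6138.

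Of all members, 9 had at most 3 counts in both libraries of a line and at least 20 in both libraries of another, and in all 9 the line with counts was shHMGA2-2. Over all genes 298 met this rule, with 209 present in shHMGA2-2 and 75 absent there. That is 0.482% of all 61806 genes beside 3.42% of the 263 members. These shares include genes with too few counts to be tested, a far larger part of all genes (16110 tested) than of the members (224 tested). Part of the gap between the shares therefore comes from genes that could hardly meet the rule. No member was absent in shHMGA2-2 and present elsewhere. The rule describes counts, so the genes are given here with folds and counting intervals in place of tests.

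ZNF558, a KRAB zinc finger gene known to repress the mitophagy gene SPATA18, had 0 counts in all 4 shNC and shHMGA2-1 libraries and 433 and 412 in shHMGA2-2. Its level was at least 133-fold higher than in shNC and at least 141-fold higher than in shHMGA2-1, taken against a floor of 3 counts in each library, and it averaged 3.13 FPKM in shHMGA2-2. ZNF649 also had 0 counts in those 4 libraries and 143 and 160 in shHMGA2-2, at least 47.7-fold more than in shNC. ZNF599 had 0 counts in the 4 libraries and 34 and 49 in shHMGA2-2, at least 13.1-fold more. For these 3 genes the 2 libraries of shHMGA2-2 stood alone.

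The other 6 had a few counts outside shHMGA2-2. ZNF829 had 0 and 1 counts with shNC, 2 and 2 with shHMGA2-1 and 210 and 210 with shHMGA2-2, a ratio of 397 to shNC (95% counting interval 70.9 to 15728) and of 105 to shHMGA2-1 (40.7 to 387). ZNF568, the human counterpart of a mouse gene that represses a placental Igf2 transcript, had 1 and 0 counts, 3 and 0, and 104 and 127, a ratio of 218 to shNC (38.8 to 8667) and of 76.9 to shHMGA2-1 (26.0 to 376). ZNF577 had 2 and 2 counts with shNC, 0 in both shHMGA2-1 libraries and 134 and 126 with shHMGA2-2, 61.5 times shNC (23.7 to 227). In these 3 genes every shHMGA2-2 library had over 100 counts and every other library 3 or fewer.

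ZNF813 had 1 and 2 counts with shNC, 0 in both shHMGA2-1 libraries and 151 and 119 with shHMGA2-2, 85.1 times shNC (28.8 to 415). ZNF625 had 2 and 0 counts, 2 and 3, and 26 and 24, a ratio of 23.6 to shNC (6.21 to 201) and of 9.99 to shHMGA2-1 (4.01 to 32.1). ZNF415 had 7 counts in each shNC library, 2 and 1 in shHMGA2-1 and 149 and 132 in shHMGA2-2, so that it was near 0 only in shHMGA2-1. The intervals cover counting error only. In RNA from a whole culture, fewer cells that transcribe a gene and less RNA per cell cannot be told apart.

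**Figure D3:**
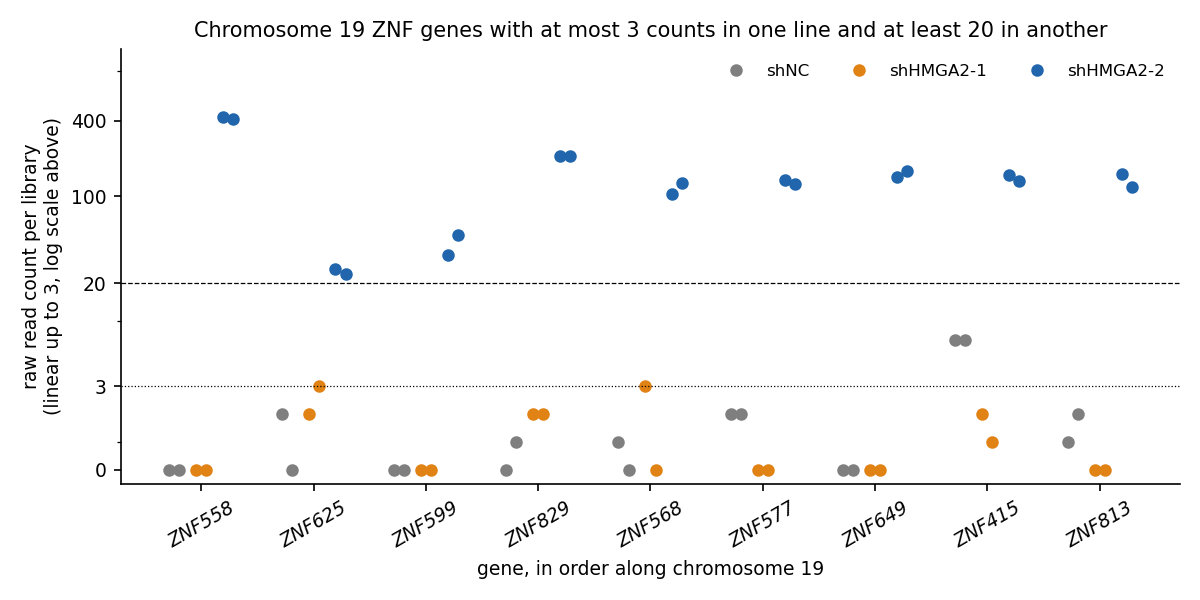
Raw read counts per library (y axis, linear up to 3 and logarithmic above) of the 9 members with at most 3 counts in both libraries of one line and at least 20 in both of another, ordered along chromosome 19. Grey, orange and blue points are shNC, shHMGA2-1 and shHMGA2-2 libraries, the dotted line marks 3 counts and the dashed line 20. Every gene has its blue points above 20, from 24 for ZNF625 to 433 for ZNF558, and all other points at 7 or below.

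These 9 genes lie in 5 of the clusters described below. In coordinates of the deposited table (GRCh38), ZNF558 spans chr19:8806170-8832314, ZNF625 chr19:12142090-12156734, ZNF599 chr19:34758073-34773229, ZNF829 chr19:36888124-36916291, ZNF568 chr19:36916329-36998700, ZNF577 chr19:51804816-51890950, ZNF649 chr19:51889235-51905040, ZNF415 chr19:53107879-53133077 and ZNF813 chr19:53467733-53496255. ZNF829 and ZNF568 point away from each other with 37 bases between their starts. ZNF577 and ZNF649 are both on the minus strand and overlap, so reads in the shared stretch could have gone to either gene. ZNF577 also overlaps genes without a symbol on its own strand and FPR3 and ZNF649-AS1 on the other. ZNF813 overlaps TPM3P6 and a gene without a symbol on its own strand and another such gene on the other. ZNF415 likewise overlaps ZNF347, and ZNF625 overlaps a readthrough with ZNF20, on the same strand. The strand setting of the counting is not stated, which also bears on ZNF829, with ZNF345 on its other strand, and on ZNF558 and ZNF649, each with a noncoding gene on the other strand. ZNF599 and ZNF568 overlap no listed gene.

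Sequences before the starts of 4 of these genes are shown as examples. They make visible the CG pairs in promoters of members and the short interval between the starts of ZNF568 and ZNF829. The bases are from RefSeq (GRCh38.p14), 5′ to 3′ on the gene's own strand, outside any annotated transcript end or leader and outside the gene itself, with every CG pair in capitals. ZNF558 is shown over chr19:8832329-8832397, minus strand, ZNF568 over chr19:36916292-36916328, plus strand, which is the whole interval between its start and that of ZNF829, and ZNF813 over chr19:53467483-53467732, plus strand. ZNF599 is shown over chr19:34773230-34773465, minus strand.
ZNF558: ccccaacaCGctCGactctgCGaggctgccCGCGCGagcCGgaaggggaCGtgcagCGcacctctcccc
ZNF568: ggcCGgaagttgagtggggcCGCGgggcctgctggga
ZNF599: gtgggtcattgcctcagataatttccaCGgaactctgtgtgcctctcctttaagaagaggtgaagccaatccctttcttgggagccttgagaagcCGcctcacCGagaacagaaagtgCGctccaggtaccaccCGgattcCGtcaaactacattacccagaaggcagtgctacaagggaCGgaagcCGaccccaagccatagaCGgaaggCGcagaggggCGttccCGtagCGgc
ZNF813: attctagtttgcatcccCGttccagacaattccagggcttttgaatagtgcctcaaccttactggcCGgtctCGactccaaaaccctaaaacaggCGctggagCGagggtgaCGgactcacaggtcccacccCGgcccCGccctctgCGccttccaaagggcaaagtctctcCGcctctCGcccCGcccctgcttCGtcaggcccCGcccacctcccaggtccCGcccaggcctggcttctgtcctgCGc

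The 4 stretches hold 9, 3, 13 and 16 CG pairs in 69, 37, 236 and 250 bases. RefSeq gave a promoter for 216 of the 263 members and for 8 of the 9 genes, ZNF649 being the one without. Over the 250 bases before the start, the median number of CG pairs was 15.5 in all members, 15.5 in the 8, 13 in the 37 matched members called higher in shHMGA2-2 against shNC and 16.0 in the 155 matched members not called there, beside 11 over 27305 genes. The A and T share was 40.4% in all members, 39.0% in the 8, 42.8% in those called higher, 39.6% in those not called and 42.0% over all genes. The members as a group thus had more CG pairs than all genes, and the 8 had the same median as the members. All genes here are all those with a RefSeq promoter, and they were not matched to the members by gene type.

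Motifs were searched on both strands, and a gene with several starts was counted when any of its windows held the motif. CCGGAAG, the core read by ETS factors, occurred in 34.3% of the matched members and 10.2% of all genes with a promoter. It was found in 3 of the 8 genes, in 29.7% of the members called higher and in 34.2% of those not called. Its copies in ZNF568 and in ZNF829 are a single site in the interval printed for ZNF568. GGGCGG, the GC box, occurred in 68.5% of the matched members and 46.2% of all genes with a promoter, and TATAAA in 3.2% and 13%. TATAAA was found in 0 of the 8. A match only says that these letters are in the window.

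Outside the 9, large changes in shHMGA2-2 were also seen in genes with some counts in each line. ZNF626 had 3 and 7 counts with shNC, 1 and 8 with shHMGA2-1 and 316 and 341 with shHMGA2-2, a log2 fold change of 5.92 ± 0.31 against shNC. With fewer than 10 counts in every shNC and shHMGA2-1 library, ZNF626 passed the filter only through shHMGA2-2 and had to differ, so no p-value is given. ZNF439 had 23 and 19 counts, 23 and 16, and 490 and 500, or 4.47 ± 0.19 (edgeR adjusted p = 5.44e-16). In both genes shNC and shHMGA2-1 overlapped and shHMGA2-2 did not. ZNF626 and ZNF439 each overlap a gene without a symbol on the same strand. ZNF506, named after its values were seen, had 54 and 34 counts, 34 and 25, and 522 and 556, or 3.53 ± 0.17 against shNC. Of the 44 members called higher, 20 were at least 4-fold and 15 at least 8-fold above shNC, and the other 24 lay between 2-fold and 4-fold. The 15 include the 10 tested members with fewer than 10 counts in every shNC and shHMGA2-1 library, which had to be far higher in shHMGA2-2 to be tested. Only 30 of the 44 had at least 10 counts in each shNC library, and shares over all genes at these folds were not taken.

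ZNF91, ZNF93 and ZNF274, members with known targets, were looked up after the values were seen, under no fixed list. All of them lay above shNC in shHMGA2-2. They are examples and do not stand for all members with a known target. ZNF91, a repressor of SVA elements, had 295 and 287 counts with shNC, 471 and 518 with shHMGA2-1 and 689 and 612 with shHMGA2-2. It was called higher in shHMGA2-2 (1.08 ± 0.11, edgeR adjusted p = 1.00e-08), and in shHMGA2-1 its value of 0.69 ± 0.11 passed the p-value threshold under 2-fold. ZNF93, a repressor of young L1 elements, had 182 and 146 counts, 138 and 153, and 324 and 320, with 0.89 ± 0.14 in shHMGA2-2 against shNC and 1.14 ± 0.14 against shHMGA2-1, of which the second was called. ZNF274, which brings SETDB1 to the 3′ ends of other zinc finger genes, had 539 and 546 counts, 669 and 616, and 956 and 1042. Its value of 0.80 ± 0.09 in shHMGA2-2 passed the p-value threshold under 2-fold (edgeR adjusted p = 6.10e-08).

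By start along the chromosome, the members fell into 17 clusters when a gap of over 1 Mb opened a new one, and 5 of these were single genes. The members called higher in shHMGA2-2 against shNC were spread over 9 clusters in unequal shares. They made up 19.6% of all tested members, beside 11.7% of all tested genes called higher. Of these 44 members, 30 had at least 10 counts in each shNC library. The counts of members by cluster, run and neighbour below were not repeated under that minimum. In the cluster from ZNF101 to ZNF254 (cluster 6, chr19:19668796-24129968), 12 of 29 tested members were higher and 28 had a log2 fold change above 0, with a median of 0.90. From ZNF653 to ZNF791 (cluster 3, chr19:11483427-12640098), 10 of 27 were higher and all 27 were above 0, with a median of 0.72. Of those called higher, at least ZNF626 and ZNF429 in cluster 6 and ZNF625 and ZNF491 in cluster 3 had fewer than 10 counts in an shNC library. The genes at the ends of these clusters were not called in any comparison.

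From ZNF175 to ZNF331 (cluster 16, chr19:51571283-53580269), 9 of 40 members (22.5%) were higher in shHMGA2-2 than in shNC, with a median of 0.32. Of these 40, 12 were higher than in shHMGA2-1, beside 19.2% of all tested members and 7.83% of all genes. From ZNF565 to ZNF573 (cluster 10, chr19:36182276-37817300), 4 of 24 (16.7%) were higher than in shNC, with a median of 0.47. The shares of both clusters against shNC were near the 19.6% of all tested members. Those called higher with fewer than 10 counts in an shNC library include ZNF577, ZNF649, ZNF415, ZNF813 and ZNF525 in cluster 16 and ZNF829 and ZNF568 in cluster 10. From ZNF628 to ZNF446 (cluster 17, chr19:55476617-58481230), the cluster with the most members, 3 of 53 were higher (5.66%), yet the median was 0.42 and 46 of 53 values were above 0. ZNF331, an imprinted gene that ends cluster 16, had 180 and 184 counts with shNC, 221 and 197 with shHMGA2-1 and 522 and 528 with shHMGA2-2, and was higher there (1.45 ± 0.12, edgeR adjusted p = 2.05e-10).

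**Figure D4:**
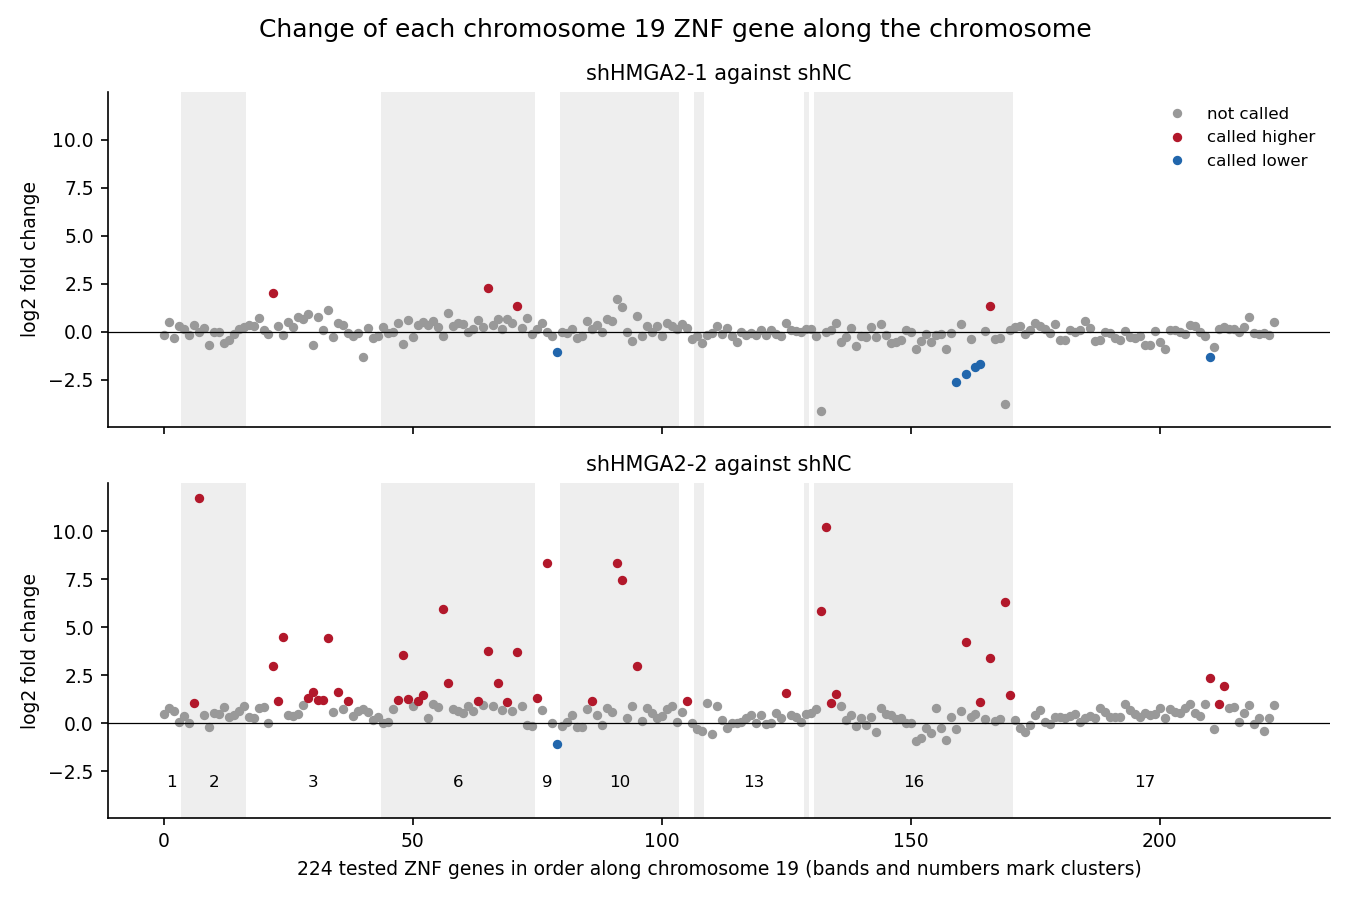
Log2 fold change against shNC (y axis) of the 224 tested members in order along chromosome 19 (x axis), for shHMGA2-1 (top) and shHMGA2-2 (bottom). Red and blue points were called higher and lower, grey points were not called, and bands and numbers mark clusters. In shHMGA2-2 the 44 red points are scattered through clusters 2 to 17 among grey points that mostly lie above 0, and in shHMGA2-1 the 6 blue points include 4 in cluster 16.

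Called genes did not fill whole clusters. The longest run of neighbouring tested members called higher in shHMGA2-2 against shNC was 5, from ZNF878 to ZNF625, with log2 fold changes from 1.19 to 4.41. Of the 44 called members, 27 had a tested neighbour of the same cluster that was also called higher and 17 had none. How many would have such a neighbour with the calls spread at random was not taken. The 9 members at or near 0 in a line had 14 other tested neighbours, with log2 fold changes between -0.02 and 1.45. Of these neighbours 4 were called higher, beside 19.6% of all tested members and 11.7% of all tested genes. ZNF420, which follows ZNF568 after 9.2 kb, had 185 and 174 counts with shNC, 196 and 187 with shHMGA2-1 and 209 and 247 with shHMGA2-2. ZNF761, which ends 5.9 kb before ZNF813, had 389 and 395, 307 and 355, and 476 and 503. Neither was called, beside a neighbour that went from at most 3 counts to over 100.

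Values above 0 ran over longer stretches than calls did. In shHMGA2-2 against shNC, 63 neighbouring tested members in a row, from ZNF559 to ZNF726 across clusters 2 to 6, had a log2 fold change above 0, from 0.01 to 5.92, called members included. The longest run below 0 was 5 members, from ZNF83 to ZNF468 in cluster 16. Genes of other names inside the clusters were counted in the same way. In cluster 6, 13 of 20 such genes were higher in shHMGA2-2 than in shNC, with a median of 1.47. In cluster 3 it was 5 of 11, with a median of 0.78. The other clusters with at least 10 such genes had smaller shares. Cluster 2 had 8 of 33, cluster 10 had 4 of 14, cluster 13 had 1 of 21 and cluster 14 had 1 of 10. Cluster 16 had 2 of 17 and cluster 17 had 4 of 37, beside 15.3% of other tested genes of chromosome 19. Of those called higher, 8 in cluster 6 and 2 in cluster 3 had fewer than 10 counts in an shNC library, so that the filter may have kept them only through shHMGA2-2. Among genes with at least 10 counts in each shNC library, 5 of 9 were higher in cluster 6, with a median of 1.12. In cluster 3 it was 3 of 9, with a median of 0.75. Under that minimum cluster 2 had 4 of 26, cluster 10 had 2 of 10, cluster 13 had 1 of 19 and cluster 14 had 1 of 10. Cluster 16 had 0 of 13 and cluster 17 had 2 of 31, beside 6.72% of other genes of chromosome 19. Several genes of other names overlap a member. Among them is LINC00664, which lies over ZNF429 and had 0 counts in shNC and shHMGA2-1 and 41 and 32 in shHMGA2-2. In cluster 10, LINC00665 had 2 to 5 counts in those 4 libraries and 194 and 177 in shHMGA2-2, whereas ENSG00000267353 had 421 to 501 and then 6 and 2.

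**Figure D5:**
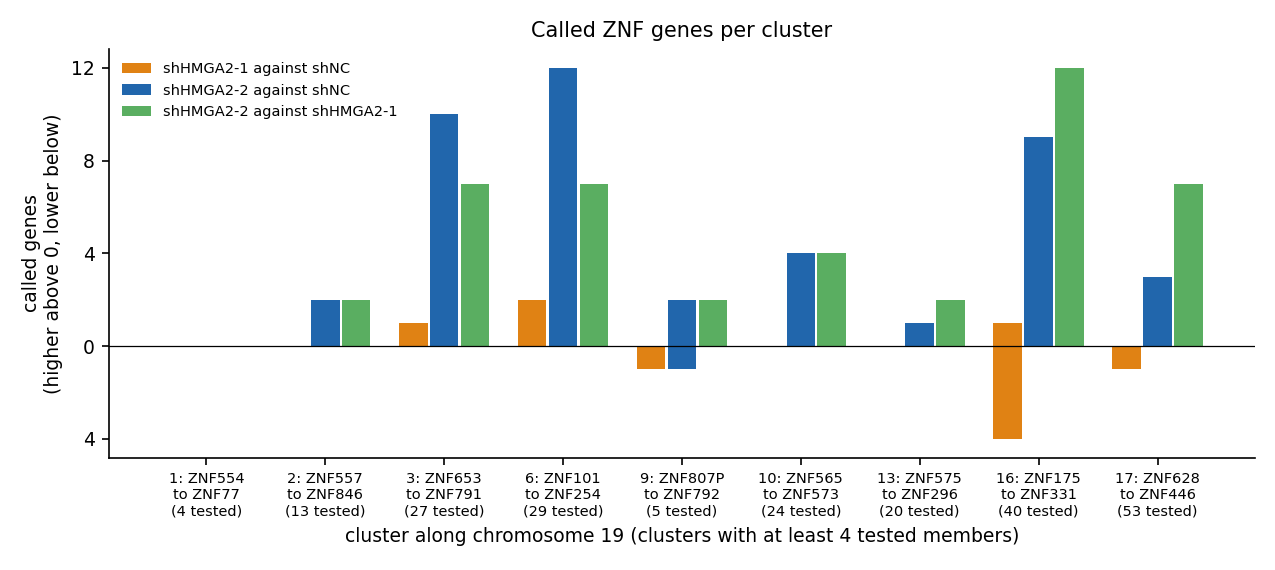
Number of members called (y axis, higher above 0 and lower below 0) in each cluster with at least 4 tested members, for the 3 comparisons. Cluster 6 has 12 genes higher in shHMGA2-2 against shNC, cluster 3 has 10 and cluster 16 has 9, and cluster 16 also holds 4 of the 6 genes lower in shHMGA2-1.

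In shHMGA2-1, 4 members were called higher than in shNC. ZNF429 had 7 and 15 counts with shNC, 63 and 52 with shHMGA2-1 and 151 and 168 with shHMGA2-2, a log2 fold change of 2.29 ± 0.33 in shHMGA2-1 (edgeR adjusted p = 6.51e-06) beside 3.76 ± 0.29 in shHMGA2-2. ZNF491 had 8 and 11, 36 and 47, and 72 and 88, or 2.04 ± 0.38 (edgeR adjusted p = 0.000149) beside 2.98 ± 0.34. The lines did not overlap in either gene. ZNF681 had 17 and 11, 32 and 45, and 196 and 189, or 1.37 ± 0.33 in shHMGA2-1 (edgeR adjusted p = 0.00239), which was 1.10 ± 0.39 and not called without shNC replicate 2 (adjusted p = 0.0537). ZNF525 had 8 and 11, 30 and 21, and 101 and 109, or 1.33 ± 0.40 (edgeR adjusted p = 0.012), and it was not called without shNC replicate 1 (adjusted p = 0.106) or without shHMGA2-1 replicate 1 (adjusted p = 0.106), nor by DESeq2 (adjusted p = 0.0612). ZNF525 overlaps ZNF765 on the same strand. Of these 4, 3 had fewer than 10 counts in an shNC library.

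Cluster 6, which holds ZNF429 and ZNF681, also had the highest shHMGA2-1 median of the clusters with at least 4 tested members, at 0.37, and 24 of its 29 values were above 0. A run of 17 members, from ZNF66 to ZNF254, lay above 0 in shHMGA2-1. ZNF254, the last of them, had 296 and 283 counts with shNC, 443 and 567 with shHMGA2-1 and 312 and 266 with shHMGA2-2. It was 0.73 ± 0.13 in shHMGA2-1 against shNC (edgeR adjusted p = 0.000104) and -0.81 ± 0.13 in shHMGA2-2 against shHMGA2-1 (edgeR adjusted p = 1.29e-05). Both values passed the p-value threshold under 2-fold, so no call was made.

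A total of 6 members were called lower in shHMGA2-1 than in shNC, and 4 of them lie in cluster 16, whose median there was -0.25. ZNF702P, a pseudogene, had 276 and 250 counts with shNC, 43 and 48 with shHMGA2-1 and 247 and 209 with shHMGA2-2, a log2 fold change of -2.61 ± 0.18 in shHMGA2-1 (edgeR adjusted p = 3.29e-11) beside -0.29 ± 0.14 in shHMGA2-2. It overlaps ERVV-1 on the other strand and a gene without a symbol on its own. ZNF665 had 30 and 28, 12 and 5, and 49 and 37, or -1.83 ± 0.45 (edgeR adjusted p = 0.00255) beside 0.49 ± 0.34. In both genes shHMGA2-1 lay below the other 4 libraries.

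ZNF792 was called lower in both lines against the shared shNC libraries. It had 180 and 200 counts with shNC, 93 and 99 with shHMGA2-1 and 94 and 96 with shHMGA2-2. The log2 fold changes were -1.06 ± 0.16 (edgeR adjusted p = 1.61e-05) and -1.08 ± 0.16 (edgeR adjusted p = 4.42e-06), and between the knockdown lines it was -0.02 ± 0.18. Both values are close to the 2-fold limit, and without shNC replicate 2 that of shHMGA2-1 was -0.98 ± 0.20 and not called. Under upper quartile scaling the values were -0.998 and -0.964, each just short of 2-fold, and neither was called.

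The remaining 3 were called lower in shHMGA2-1 and higher in shHMGA2-2. ZNF418, in cluster 17, had 31 and 37 counts with shNC, 17 and 12 with shHMGA2-1 and 187 and 174 with shHMGA2-2, with -1.30 ± 0.33 (edgeR adjusted p = 0.00325) and 2.32 ± 0.22 (edgeR adjusted p = 2.13e-09). ZNF818P, a pseudogene in cluster 16, had 38 and 35, 16 and 8, and 73 and 95, with -1.67 ± 0.37 (edgeR adjusted p = 0.00111) and 1.12 ± 0.27 (edgeR adjusted p = 0.00115). Without shHMGA2-2 replicate 2 the second value was 0.93 ± 0.35 and not called. ZNF415, described above, had -2.21 ± 0.76 (edgeR adjusted p = 0.0281) and 4.22 ± 0.32. With fewer than 10 counts in every shNC and shHMGA2-1 library, ZNF415 passed the filter only through shHMGA2-2, so its second value had to be high. Its call in shHMGA2-1 rests on 7 and 7 against 2 and 1 counts and was lost without any 1 of those 4 libraries, at adjusted p from 0.0587 to 0.13, and with DESeq2 (adjusted p = 0.076). The 3 lines did not overlap in any of these 3 genes.

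With the 4 knockdown libraries taken as a single group, so that the difference between the lines counts as error, 1 member was higher and 1 lower than in shNC, beside 1.72% and 1.37% of all genes. ZNF491 was higher by 2.58 ± 0.49 (edgeR adjusted p = 0.036) and ZNF792 lower, at -1.07 ± 0.15 (edgeR adjusted p = 0.0185). The common coefficient of variation of the fit was 0.291 here and 0.0583 with 3 lines. Without shNC replicate 1 the adjusted p was 0.309 for ZNF491 and 0.195 for ZNF792, and without shNC replicate 2 it was 0.263 and 0.229, so that both calls were lost. They were also lost without shHMGA2-2 replicate 1 (edgeR adjusted p = 0.082 and 0.0532), and that of ZNF491 without shHMGA2-1 replicate 2 (0.0509) or shHMGA2-2 replicate 2 (0.0708). Among members with at least 10 counts in each shNC library, 0 were higher and 1 was lower, beside 1.22% and 1.57%.

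The proteins with which KRAB zinc finger proteins silence DNA were read from a list of 25 genes, all tested. Against shNC, edgeR called 0 in shHMGA2-1, where 7 were lower and 3 higher at an unadjusted p under 0.05 and where DESeq2 and limma also called 0. In shHMGA2-2, 2 were called lower and 0 higher, beside 9.65% and 11.7% of all genes, with 11 lower and 9 higher at an unadjusted p under 0.05 and 0 called higher by DESeq2 or limma. The medians were 0.03 and -0.01. CBX5, the heterochromatin protein HP1 alpha, had 3626 and 3584 counts with shNC, 2944 and 3365 with shHMGA2-1 and 876 and 867 with shHMGA2-2. It was lower in shHMGA2-2 by -2.13 ± 0.08 against shNC (edgeR adjusted p = 7.08e-17) and by -1.86 ± 0.08 against shHMGA2-1. DNMT3B, a de novo DNA methyltransferase, had 457 and 475, 316 and 267, and 216 and 190, and was lower in shHMGA2-2 at -1.28 ± 0.12 (edgeR adjusted p = 3.81e-09). The shHMGA2-2 libraries were the lowest for both genes.

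TRIM28 itself had 5740 and 5726 counts with shNC, 7050 and 6032 with shHMGA2-1 and 5717 and 6333 with shHMGA2-2, and its difference from shNC was 0.11 ± 0.07 and -0.01 ± 0.07. SETDB1 differed by 0.28 in each line. The part of CBX5 and DNMT3B in the members' values was not tested. Of 15 further zinc finger genes of chromosome 19 with other names, such as ZFP14 and MZF1, 8 were tested, and 1 of them, ZFP14, was higher in shHMGA2-2 than in shNC (1.15), where 11.7% of all tested genes were called higher, with a median over the 8 of 0.50.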

How the data were processed

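Counts and FPKM of 6 MDA-MB-231 libraries (shNC, shHMGA2-1 and shHMGA2-2, 2 each by sample title) were read from 1 table. The authors deposited raw counts per gene, and FPKM values, of which 100% equalled counts divided by exonic size and library total within 0.0051. The submitters' processing notes name HISAT2 2.2.1, HTSeq 0.6.1 and GRCh38.p13, and strand and annotation are not given in the sources used here. Library names call the controls WT and the shHMGA2-1 samples SH2, and the titles were followed. The shHMGA2-2 libraries have names of another form, and whether they were handled apart from the others is not stated. Sample columns not used numbered 0.

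Members and lists were chosen with earlier results of these data known. edgeR 4.0.16 (R 4.3.3) fitted 3 lines over 16110 genes kept by filterByExpr, with TMM scaling, quasi-likelihood tests and Benjamini-Hochberg adjustment. On simulated counts it recovered most planted changes. Alternatives were upper quartile scaling, DESeq2 1.42.0, limma 3.58.1 on log2(FPKM + 1) with a mean FPKM over 0.1, no filter, each library left out, a replicate block, and, added after seeing the data, a crossed block and a minimum of 10 counts in shNC. Named members were HMGA2 and, per comparison, the 10 largest called changes each way, members at most 3 counts in 1 line and at least 20 in another, those called in opposite directions, the 5 highest by FPKM and the ends of clusters with 3 called members. Types and UTRs were taken from GENCODE v29, which held all 263 members (247 protein-coding, 16 pseudogenes), 116 with the same start and end. The replicate differences of the lines correlated at -0.02, 0.00 and -0.10, so the numbers do not pair the samples. Replicates of a line differed by more than sampling noise. The chi-square per degree of freedom was 2.03 in shNC, 6.21 in shHMGA2-1 and 2.91 in shHMGA2-2. The fit used 1 spread per gene for the 3 lines, so SE and p-values that involve shHMGA2-1 may be too small. A count of 0 was read against a floor of 3 counts per library, or about 0.18 CPM.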

Additional observations from a re-analysis of the deposited data

Results flagged for a closer look

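A set of 3 members was called in opposite directions in the 2 knockdown lines. They were chosen by those calls, so the difference between the lines follows from the choice and is given as a description, with no independent test. On the log2 scale shHMGA2-2 lay 6.43 ± 0.42 above shHMGA2-1 for ZNF415, 2.79 ± 0.33 for ZNF818P and 3.63 ± 0.26 for ZNF418. The fold changes of both lines against control share the shNC libraries. No group had enough libraries to look for single outlying ones.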

How the results depend on the processing

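Of 569 values of single members under alternatives, 518 kept their direction and side of the threshold, 51 lost the call and 0 reversed. limma on log2(FPKM + 1) accounted for 27 of the 51, since the added 1 compresses changes of low genes. Under it 1, 18 and 15 members were called in shHMGA2-1 against shNC, shHMGA2-2 against shNC and shHMGA2-2 against shHMGA2-1, and 0 with the lines pooled, in place of 10, 45, 43 and 2. At any size the counts were 57, 134, 130 and 4. With at least 10 counts in each shNC library, 6 were called in shHMGA2-1 and 1 with the lines pooled. The pooled comparison gave 11 with DESeq2, 1 with upper quartile scaling and 0 with the replicate block. Leaving out a library gave 9 to 12 members in shHMGA2-1 against shNC, 43 to 49 and 38 to 47 in the other 2 comparisons, and 0 to 2 pooled. Upper quartile scaling called 61 members in shHMGA2-2 against shNC, all higher, with ZNF792 at -0.96 there. The replicate numbers do not pair the samples, and with a replicate block 10, 45 and 42 members were called, and with crossed numbers 43 between the knockdown lines. Members at 0 in both libraries of a line and at least 20 in another numbered 5. The ratio of summed level in shHMGA2-2 to shNC was 1.42 without ZNF146 and 1.47 in FPKM. The 39 members with too few counts were not tested.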
